A study of Mus musculus with 16 samples.

Results

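The 10 genes described here code for chemokines that connective tissue cells of fat can make: Ccl2, Ccl7, Ccl11, Cxcl1, Cxcl2, Cxcl5, Cxcl10, Cxcl12, Cxcl13 and Cxcl14. They were taken by symbol from a table of 27179 genes, and all 10 were found. Its values are normalized read counts of RNA from Pdgfrb+ cells, which flow cytometry had isolated from epididymal white fat. The mice were C57BL/6, taken at postnatal day 7. The cells fell into 4 populations that the labels name APCs, FIPs, MLCs and SMCs, by usual usage adipocyte precursors, fibro-inflammatory progenitors, mesothelial-like cells and smooth muscle cells, with 4 libraries each and 16 in all. The labels name no transgene, treatment or deletion, and do not give the antibodies that divided the populations. The labels do not say whether the 4 libraries of a population came from separate mice, pooled mice or separate sorts. A p-value here rests on the variation among libraries within populations, pooled over all 4 populations. Part or all of that variation may be technical.

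Chemokines are small secreted proteins that bind G protein-coupled receptors on leukocytes and other cells and draw those cells along a gradient. The spacing of their first cysteines divides most of them into the CC and CXC families. Some are made in bursts after tissue damage or infection, when NF-kB, AP-1 or interferon signalling switches their genes on, whereas others, of which Cxcl12 is the best known, are made at rest and keep blood-forming and immune cells in place. In fat, stromal cells are a known source of the monocyte attractant Ccl2 and of the eosinophil attractant Ccl11. Receptors of the atypical group bind chemokines without the usual signalling and take them up or carry them.

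The promoters of 6 of the 10 genes were matched in RefSeq tables for GRCm38.p6, and the 250 bases before the start of 4 of them are shown because these genes differ in their level and in whether a binding-site match was found. Capitals mark matches to the consensus of NF-kB and to GAAANNGAAA, a pattern of interferon-stimulated response elements, on either strand. Sequences run 5′ to 3′ along the gene.
Cxcl1 (chr5:90890995-90891244, plus strand): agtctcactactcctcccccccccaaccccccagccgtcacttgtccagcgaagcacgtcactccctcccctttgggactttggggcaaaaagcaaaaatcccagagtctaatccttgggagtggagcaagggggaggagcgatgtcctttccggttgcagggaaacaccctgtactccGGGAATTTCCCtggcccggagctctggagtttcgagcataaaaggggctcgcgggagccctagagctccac
Cxcl2 (chr5:90903649-90903898, plus strand): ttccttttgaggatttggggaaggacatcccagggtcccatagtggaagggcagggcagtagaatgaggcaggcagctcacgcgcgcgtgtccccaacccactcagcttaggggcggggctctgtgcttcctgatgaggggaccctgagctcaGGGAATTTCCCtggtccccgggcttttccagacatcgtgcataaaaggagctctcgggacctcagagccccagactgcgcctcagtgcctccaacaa
Cxcl10 (chr5:92348890-92349139, minus strand): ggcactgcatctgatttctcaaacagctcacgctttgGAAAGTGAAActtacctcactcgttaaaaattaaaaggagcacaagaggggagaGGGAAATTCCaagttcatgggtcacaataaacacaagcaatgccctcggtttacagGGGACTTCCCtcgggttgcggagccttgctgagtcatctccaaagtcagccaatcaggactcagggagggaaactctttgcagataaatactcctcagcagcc
Cxcl12 (chr6:117168285-117168534, plus strand): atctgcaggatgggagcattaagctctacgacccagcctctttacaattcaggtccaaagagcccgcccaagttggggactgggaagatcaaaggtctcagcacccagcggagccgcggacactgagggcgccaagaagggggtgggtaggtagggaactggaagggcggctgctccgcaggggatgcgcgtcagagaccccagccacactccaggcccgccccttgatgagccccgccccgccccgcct

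The promoters of Cxcl1 and Cxcl2 both held GGGAATTTCCC, in which the NF-kB consensus matched on both strands, beginning 71 bases before the start of Cxcl1 and 97 before that of Cxcl2. Cxcl10 held 2 NF-kB matches, GGGAAATTCC and GGGACTTCCC, beginning 159 and 103 bases before its start, and GAAAGTGAAA beginning 213 bases before it. Its promoter also held TGAGTCA, a match to the AP-1 pattern TGANTCA. Neither the NF-kB consensus nor GAAANNGAAA occurred in these 250 bases of Cxcl12 or Cxcl13. For Cxcl14 the table places the start inside the gene as RefSeq annotates it, so the 250 bases searched (chr13:56296552-56296801, minus strand) lie within the gene; in them GAAACAGAAA matched GAAANNGAAA and the NF-kB consensus did not occur. Among 32851 promoters of this length, 3.9% held the NF-kB consensus, 2.98% held GAAANNGAAA and 6.75% held TGANTCA. These matches describe letters and are not evidence of binding.

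The genes lie in groups on the mouse genome (RefSeq, GRCm38.p6; all are protein-coding). Ccl2 (chromosome 11, 82035577 to 82037452), Ccl7 (82045712 to 82047525) and Ccl11 (82057832 to 82062955) are neighbours, with gaps of 8.26 and 10.3 kb. On chromosome 5 Cxcl5 (90759298 to 90761625) is followed by Cxcl1 (90891245 to 90893121) and, 10.8 kb further, by Cxcl2 (90903899 to 90905938). Cxcl10 (92346638 to 92348889) and Cxcl13 (95956939 to 95961068) lie on the same chromosome. Cxcl12 (chromosome 6, 117168535 to 117181368) and Cxcl14 (chromosome 13, 56288643 to 56296811) stand alone among the 10. How reads that fit several related genes were counted is not stated in the labels.

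Libraries held between 9204654 and 27528365 reads in genes, and the shallowest were SMCs replicate 3 (9204654 reads) and APCs replicate 4 (11223980 reads). The labels were checked against marker lists. Summed levels of 7 APC markers, mostly Lpl, were 52342 to 81197.5 normalized counts in APCs and 25391 to 38517 in FIPs. Those of 7 FIP markers, mostly Fbn1, were 353738 to 381871 in FIPs and 72935 to 98522 in APCs. Of the FIP markers, Dpp4 was higher in MLCs (mean 8805) than in FIPs (2053). The 8 endothelial markers together were at 7845 to 8729 in FIPs and 1067 to 1560 in APCs. Summed levels of 8 mesothelial markers were 132228 to 136061 normalized counts in MLCs, 9595 to 15297 in SMCs, 3837 to 4318 in APCs and 2989 to 3544 in FIPs. Most of the sum in APCs and FIPs was Wt1 (3782 to 4214 and 2705 to 3180), which was at 2741 to 3723 in SMCs. Summed levels of 8 smooth muscle markers were 11020.1 to 15906 in SMCs and 9318 to 10163 in MLCs, but the fibroblast receptor Pdgfra was at 23838 ± 1968 in SMCs and 20555 ± 248 in APCs (mean ± SD, n = 4), and all 8 mesothelial markers were at or above 163 in every SMC library. Among the APC libraries, replicate 4 stood apart with 2388 normalized counts of smooth muscle actin (Acta2), against 156 to 221 in the other 3. Of the markers of leukocytes, which also make chemokines, the pan-leukocyte gene Ptprc was between 0 and 11.4 in the 16 libraries, the macrophage gene Adgre1 between 0 and 13.9, and the 6 neutrophil markers together between 0 and 8.59. The highest of the 10 macrophage and myeloid markers were Cd68, with means of 391 in MLCs to 734 in APCs, and Csf1r, with 2210.5 in MLCs and 258 in SMCs, and their part in the chemokine levels was not tested. In such bulk libraries, fewer cells making a transcript and less of it per cell cannot be told apart.

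**Figure D1:**
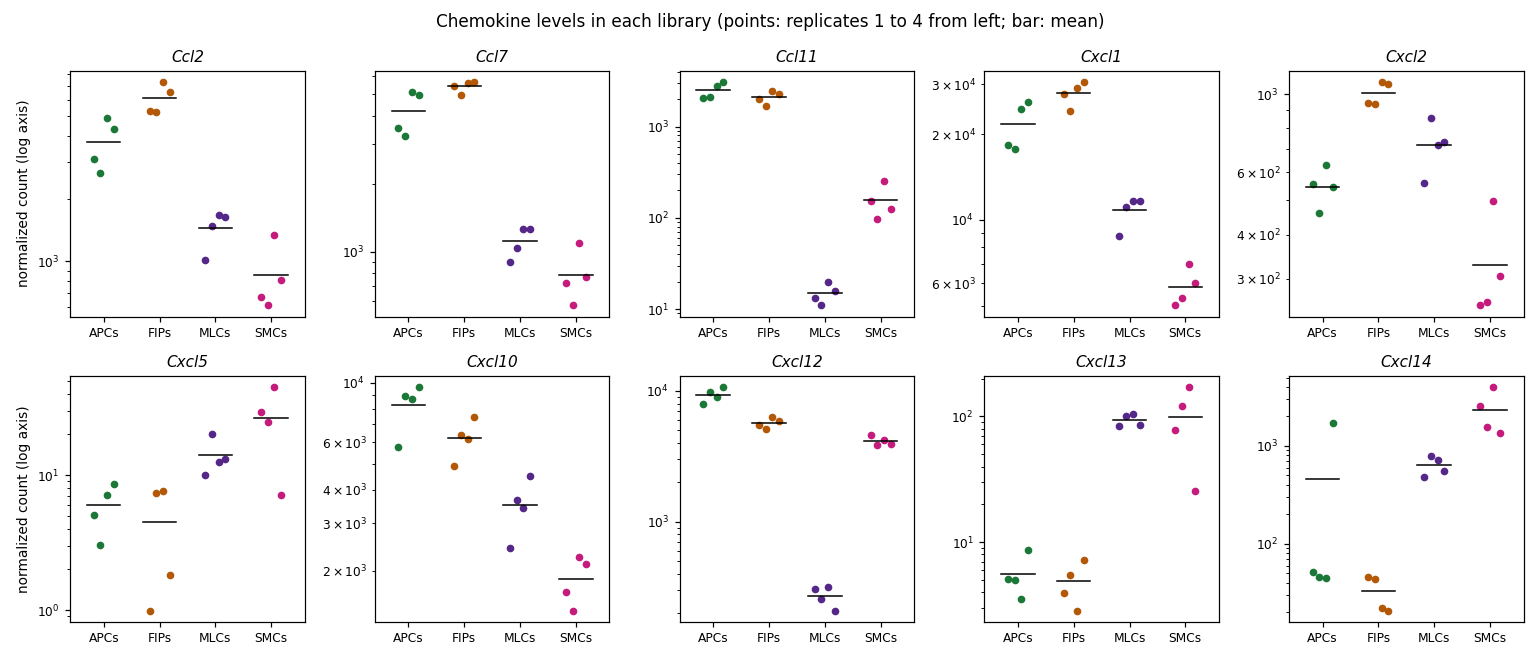
Normalized counts of the 10 chemokine genes (vertical log axes, 1 panel a gene) in APCs, FIPs, MLCs and SMCs. Each point is 1 library and each bar the mean of 4. Ccl2, Ccl7, Ccl11 and Cxcl1 were highest in both progenitor populations, Cxcl13 was high in MLCs and SMCs, and 1 APC library (replicate 4, 1707 counts) stood far above the others for Cxcl14.

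In both APCs and FIPs the levels of Cxcl1, Ccl2, Ccl7, Ccl11, Cxcl10 and Cxcl12 were high, and those of Cxcl5, Cxcl13 and, in 7 of 8 libraries, Cxcl14 were low. Ccl2, Ccl7, Ccl11, Cxcl1 and Cxcl10 had higher means in both progenitors than in MLCs and SMCs, whereas Cxcl12 was also high in SMCs and Cxcl2 was higher in MLCs than in APCs. A gene was called when the limma test on log2(normalized count + 1), adjusted by Benjamini-Hochberg over the 15024 genes tested, gave a p under 0.05 with a change of at least 2-fold. All 10 chemokines passed the filter of at least 10 normalized counts in at least 4 libraries, but Cxcl5 and Cxcl13 passed through MLCs and SMCs alone. They had to differ from the progenitors to pass, so they are described without a test there, and counts are given for the other 8. Between APCs and FIPs 0 of 10 chemokines were called, where 10.4% of all genes were called, a share that amounts to about 1 gene in 10. In that comparison 4 of the 10 had an adjusted p under 0.05, all 4 with changes under 2-fold. Of all genes 41.1% had such an adjusted p, about the same share. The single chemokine that edgeR and DESeq2 called there, each on 14 libraries, was Cxcl14, and limma called it too when APCs replicate 1, 2 or 3 was left out, but not without replicate 4.

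Most of the other 8 chemokines were called between a progenitor population and MLCs or SMCs. Between APCs and MLCs 6 of 8 were called, where 29.6% of all genes were: 5 were higher in APCs (11.8% of all genes) and 1, Cxcl14, lower (17.7%). Between FIPs and MLCs 6 of 8 were called (all genes 31.1%), 5 higher in FIPs (12.5%) and 1, Cxcl14, lower (18.6%). Against SMCs, 7 of 8 were called for APCs (all genes 17.2%), 6 higher in APCs (3.79%) and 1, again Cxcl14, lower (13.5%). For FIPs the count was also 7 of 8 (all genes 17.9%), 6 higher in FIPs (4.6%) and Cxcl14 lower (13.3%). Between MLCs and SMCs 3 of 8 were called (all genes 27.9%), 1 higher in MLCs (14.4%) and 2 higher in SMCs (13.5%). The median log2 fold change of the 8 genes was -0.066 for APCs against FIPs, 1.30 for APCs against MLCs, 2.01 for APCs against SMCs, 1.73 for FIPs against MLCs, 2.01 for FIPs against SMCs and 0.66 for MLCs against SMCs, beside medians over all genes tested between -0.019 and 0.037. These comparisons share libraries with each other. Without the 2 shallowest libraries 0, 6, 8, 6, 7 and 5 of the 8 were called in that order of comparisons, and the last rose from 3 because Ccl2 (log2 1.03) and Cxcl14 (-1.48) were then called as well.

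**Figure D2:**
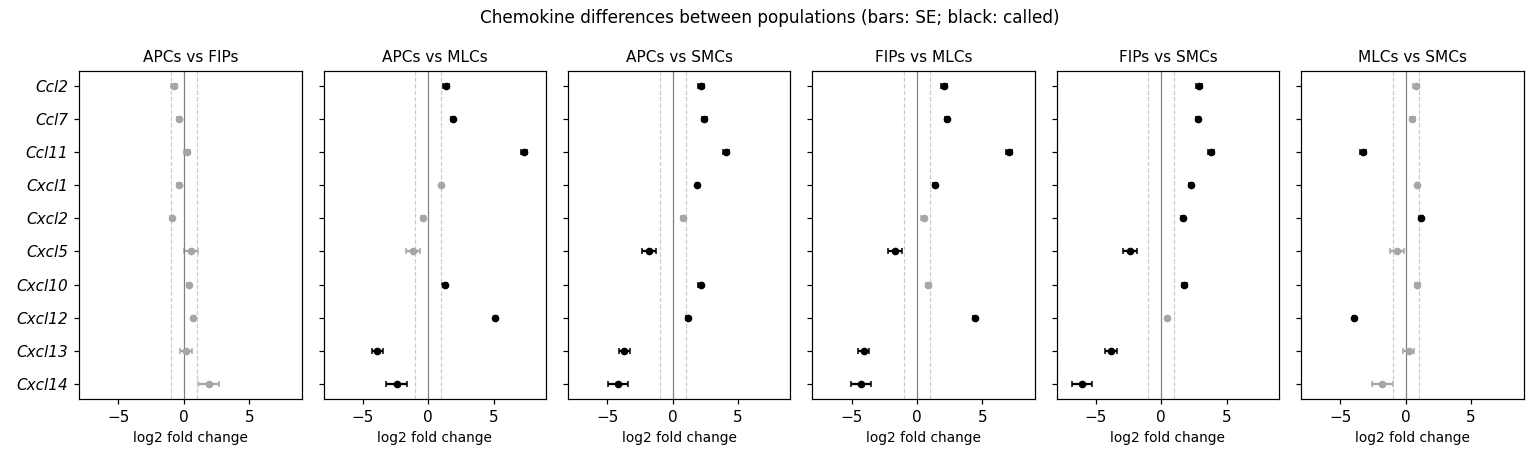
Log2 fold changes of the 10 chemokines (horizontal axes) in the 6 pairs of populations, the first named minus the second, with SE bars, from 4 libraries a population. Black points were called and grey ones were not (those of Cxcl5 and Cxcl13 against progenitors are no test, as they passed the filter through MLCs and SMCs alone), and dashed lines mark 2-fold. All points of APCs against FIPs are grey, and the largest differences are those of Ccl11 against MLCs (log2 7.29 for APCs and 7.04 for FIPs).

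Cxcl1, Cxcl2 and Cxcl5 are ligands of Cxcr2 and attract neutrophils. Cxcl1 was at 18301, 17756, 24451 and 26026 normalized counts in the 4 APC libraries, 27715, 24124, 28942 and 30506 in FIPs, 8740.1, 11137, 11619.7 and 11644 in MLCs and 5007, 5318, 6994 and 5987 in SMCs. The order was FIPs, APCs, MLCs and SMCs, the libraries of FIPs and APCs overlapped, and those of the other neighbours in that order did not. The log2 fold change was -0.38 ± 0.13 (SE) between APCs and FIPs, under the fold limit (limma adjusted p = 0.0249, 95% interval -0.65 to -0.11), and 2.26 ± 0.13 between FIPs and SMCs (adjusted p = 2.48e-11). For APCs against MLCs it was 0.99, just under the fold limit, and leaving out any of APCs replicates 1 and 2 or MLCs replicates 2, 3 and 4 took it over 1 (up to 1.08), as did edgeR (1.14) and DESeq2 (1.09). FIPs exceeded MLCs 2.59-fold (adjusted p = 1.37e-08), a call lost with quantile normalization, where the log2 fold change was 0.98. Per kb of exon (GENCODE M21, union of exons), a scale on which genes can be compared, Cxcl1 had the highest mean level of the 10 in every population, 29194 in FIP libraries, 22700.3 in APC libraries, 11317 in MLC libraries and 6114 in SMC libraries.

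Cxcl2, whose promoter shares the GGGAATTTCCC run with Cxcl1, was far lower and had another order, with MLCs above APCs. Its levels were 944, 938, 1085 and 1067 normalized counts in FIP libraries, 559.7, 858, 719 and 732 in MLC libraries, 555, 459, 628 and 546 in APC libraries and 252, 257, 497 and 306 in SMC libraries. FIP libraries lay above all the others, whereas MLC and APC libraries overlapped, as did APC and SMC libraries through SMCs replicate 3. Cxcl2 was called between FIPs and SMCs (log2 1.67 ± 0.17, limma adjusted p = 8.66e-08) and between MLCs and SMCs (1.17 ± 0.17, adjusted p = 5.4e-06). Between APCs and FIPs it stayed under the fold limit at -0.89 ± 0.17 (adjusted p = 0.000274), and between APCs and SMCs it was at 0.79, or 1.01 and called without SMCs replicate 3. Per kb of exon the mean level of Cxcl2 in FIPs was 543.

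Cxcl5 was close to the limit of detection, with 1 to 10 reads in each progenitor library, 12 to 24 in MLCs and 7 to 28 in SMCs. Normalized, it was at 29.5, 24.5, 44.8 and 7.15 in SMC libraries, 10.1, 20.3, 12.5 and 13.2 in MLC libraries, 5.07, 3.02, 7.15 and 8.65 in APC libraries and 0.989, 7.40, 7.64 and 1.81 in FIP libraries. MLC libraries lay above all progenitor libraries, and SMCs replicate 4 fell among the progenitors. Cxcl5 reached 10 normalized counts in MLCs and SMCs alone, so its difference from the progenitors is given by these values, and MLCs and SMCs did not pass the test between them (log2 -0.67 ± 0.54, limma adjusted p = 0.285, 95% interval -1.80 to 0.46).

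Ccl2 and Ccl7, neighbours on chromosome 11, both act through Ccr2 and attract monocytes. Ccl2 was at 3100.2, 2648, 4882 and 4313 normalized counts in APC libraries, 5297, 5241, 7311 and 6527 in FIP libraries, 1007, 1474, 1666 and 1632 in MLC libraries and 671, 612, 1334 and 813 in SMC libraries. All FIP libraries lay above all APC libraries, and the lowest APC library lay above every MLC and SMC library, while MLC and SMC libraries overlapped. FIPs exceeded SMCs 7.38-fold (log2 2.88 ± 0.22, limma adjusted p = 1.89e-09) and MLCs 4.25-fold (adjusted p = 7.4e-08), and APCs exceeded MLCs 2.56-fold (adjusted p = 2.29e-05). The difference between APCs and FIPs was -0.73 ± 0.22 on the log2 scale (adjusted p = 0.0121, 95% interval -1.20 to -0.27), under the fold limit.

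Ccl7 followed the same order with means of 5414 ± 315 normalized counts in FIP libraries, 4224 ± 945 in APC libraries, 1112 ± 180.1 in MLC libraries and 789.99 ± 215 in SMC libraries (SD, n = 4 each). Its APC libraries were at 3555, 3271, 5088 and 4982, so that replicates 3 and 4 reached into the range of FIPs (4966 to 5668), and MLCs (895 to 1261) and SMCs (576 to 1087) overlapped. It differed 7.02-fold between FIPs and SMCs (limma adjusted p = 3.37e-11) and 3.76-fold between APCs and MLCs (adjusted p = 3.66e-09). Between APCs and FIPs the log2 fold change of -0.38 ± 0.16 did not pass the test (adjusted p = 0.0702, 95% interval -0.73 to -0.039).

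Ccl11, eotaxin, acts through Ccr3 and attracts eosinophils, and it separated the populations most widely among these genes. Its levels were 2045, 2094, 2777 and 3079.7 normalized counts in APC libraries, 1982, 1672, 2468 and 2259.9 in FIP libraries, 154, 97.1, 254 and 124 in SMC libraries and 13.4, 11, 19.9 and 15.8 in MLC libraries. APC and FIP libraries overlapped, all SMC libraries lay below them, and all MLC libraries, at 13 to 27 reads each, lay below the SMCs. APCs exceeded MLCs 157-fold (log2 7.29 ± 0.23, limma adjusted p = 5.62e-16) and SMCs 16.6-fold (4.05 ± 0.23, adjusted p = 3.03e-11), and SMCs exceeded MLCs 9.44-fold (adjusted p = 2.63e-10). Between APCs and FIPs the log2 fold change was 0.25 ± 0.23 (adjusted p = 0.426, 95% interval -0.24 to 0.73). So Ccl11 ranked SMCs above MLCs, whereas its neighbours Ccl2 and Ccl7 had the lower mean in SMCs.

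Cxcl10, a ligand of Cxcr3 that interferon induces and that attracts T cells, was also highest in the progenitors. It was at 5789, 8909.98, 8695 and 9625 normalized counts in APC libraries, 4903, 6408, 6198 and 7465 in FIP libraries, 2431, 3662, 3409.8 and 4496 in MLC libraries and 1668, 1419, 2252 and 2117 in SMC libraries. APC and FIP libraries overlapped, FIP libraries lay above MLC libraries, and MLC libraries lay above SMC libraries. APCs exceeded SMCs 4.42-fold (log2 2.14 ± 0.18, limma adjusted p = 1.18e-08) and MLCs 2.37-fold (adjusted p = 6.88e-06). FIPs against MLCs (0.85) and MLCs against SMCs (0.90) differed by less than 2-fold (adjusted p = 0.000432 and adjusted p = 0.000288), and the latter was at 1.06 and called without MLCs replicate 1.

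Most interferon response genes were highest in another population than Cxcl10. Of 18 such genes tested, 12 were called between APCs and MLCs, all higher in MLCs, and 10 between MLCs and SMCs, again all higher in MLCs, beside 17.7% and 14.4% of all genes. Oas1a, at most 8.65 in APC libraries and at least 90.7 in MLC libraries, met the filter without the APCs. Its difference between APCs and MLCs is therefore no test. Oasl2, coding for an interferon-induced antiviral protein, was at 6044 ± 1172 normalized counts in MLCs and 348 ± 202 in APCs (SD, n = 4), and Gbp2, an interferon-induced GTPase, at 8622 ± 4681 and 3126 ± 365. MLCs replicate 4 was the highest MLC library for all 18 genes and raised these means. For Gbp2 it was at 15504, against 5412, 7599 and 5974 in the other MLC libraries. Irf1, a transcription factor of the same response, was higher in both progenitors, as Cxcl10 was, with 19719 ± 360.4 in APC libraries, 20667 ± 816 in FIP libraries, 10147 ± 1940.4 in MLC libraries and 9365 ± 521 in SMC libraries. The median log2 fold change of the 18 genes was -1.35 for APCs against MLCs, beside -0.019 over all genes.

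Cxcl12, Cxcl13 and Cxcl14 are made at rest in many tissues. Cxcl12, the ligand of Cxcr4 and of the atypical receptor Ackr3 that holds blood-forming cells in the marrow, was at 7891, 9811, 8955 and 10693 normalized counts in APC libraries, 5516, 5163, 6341 and 5860.2 in FIP libraries, 4598, 3885, 4215 and 3955 in SMC libraries and 305, 256, 314 and 209 in MLC libraries. The libraries of neighbouring populations did not overlap anywhere in this order. MLCs were 34.6-fold below APCs (log2 5.11 ± 0.11 for APCs minus MLCs, limma adjusted p = 2.4e-18), 21.2-fold below FIPs (adjusted p = 1.9e-17) and 15.5-fold below SMCs (adjusted p = 1.93e-16). APCs exceeded SMCs 2.23-fold (adjusted p = 5.68e-08), and the 1.63-fold difference between APCs and FIPs (adjusted p = 4.2e-05) and the 1.37-fold difference between FIPs and SMCs (adjusted p = 0.00196) stayed under the fold limit.

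Cxcl13, the ligand of Cxcr5 that attracts B cells to follicles, was present in MLCs and SMCs and near the limit of detection in the progenitors, with 3 to 8 reads in each progenitor library. Its levels were 84.6, 101.5, 105.5 and 85.4 normalized counts in MLC libraries, 77.9, 121, 171 and 25.5 in SMC libraries, 5.07, 5.04, 3.57 and 8.65 in APC libraries and 3.96, 5.55, 2.86 and 7.25 in FIP libraries. All MLC and SMC libraries lay above all progenitor libraries, and the SMC libraries spread around the narrow MLC range. Since it reached 10 normalized counts in MLCs and SMCs alone, its difference from the progenitors is given by these values and not by a test. MLCs and SMCs did not pass the test between them (log2 0.22 ± 0.43, limma adjusted p = 0.664, 95% interval -0.67 to 1.11). SMC libraries also held the mesothelial transcripts given above, for example Upk3b (uroplakin 3b) at 3528 against 40551 in MLCs, and their part in the SMC level of Cxcl13 was not tested.

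Cxcl14, a chemokine of epithelia and skin, had the highest level in SMCs and a single high library among the progenitors. It was at 2531, 1554, 3982 and 1358 normalized counts in SMC libraries, 481, 785, 724 and 556 in MLC libraries, 45.5, 44.4, 22.0 and 20.9 in FIP libraries and 51.6, 46.3, 45.0 and 1707 in APC libraries. SMC libraries lay above MLC libraries, FIP libraries and the first 3 APC libraries lay below both, and APCs replicate 4 lay within the range of SMCs. The 3 other APC libraries averaged 47.6 ± 3.45 (SD, n = 3), so replicate 4 was 35.8 times their mean. The same library had 12 times the mean of the other 3 for Acta2, 15.5 times for Cnn1 (calponin) and 5.53 times for Tagln (transgelin), all contractile genes, but 0.856 times for Myh11, the smooth muscle myosin. Of the rest of that list, Lmod1 was also highest in replicate 4 among APC libraries (98.6), but Des (975) and Smtn (2843) were lowest there. Myocd was at 0 in replicate 4. The 8 smooth muscle markers together were at 8008 in that library and 5334 to 5805 in the other 3. That sum includes Smtn, whose mean was higher in MLCs (5528) than in SMCs (4227). The part of these markers in the Cxcl14 of replicate 4 was not tested. SMCs exceeded FIPs 67.0-fold (log2 -6.07 ± 0.79 for FIPs minus SMCs, limma adjusted p = 2.47e-06) and MLCs exceeded FIPs 19.5-fold (adjusted p = 8.03e-05). For APCs minus SMCs the log2 fold change was -4.18 ± 0.79 (adjusted p = 0.000183) with all libraries and -5.47 without APCs replicate 4 (adjusted p = 4.66e-11), and with DESeq2, which kept that library, it was -1.98 and not called (adjusted p = 0.0793). For APCs minus MLCs it was -2.40 ± 0.79 (adjusted p = 0.0113) with limma, -3.69 without APCs replicate 4, and -0.20 and not called with edgeR (adjusted p = 0.839). For APCs minus FIPs it was 1.88 ± 0.79 (adjusted p = 0.0635), 0.60 without that library (adjusted p = 0.141), and 4.22 with edgeR (adjusted p = 0.00921). MLCs minus SMCs, at -1.78 ± 0.79, missed the threshold with all libraries (adjusted p = 0.0541) and passed without APCs replicate 4 (adjusted p = 2.53e-05). That library belongs to neither population, but its Cxcl14 value widens the pooled spread that all pairs share.

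**Figure D3:**
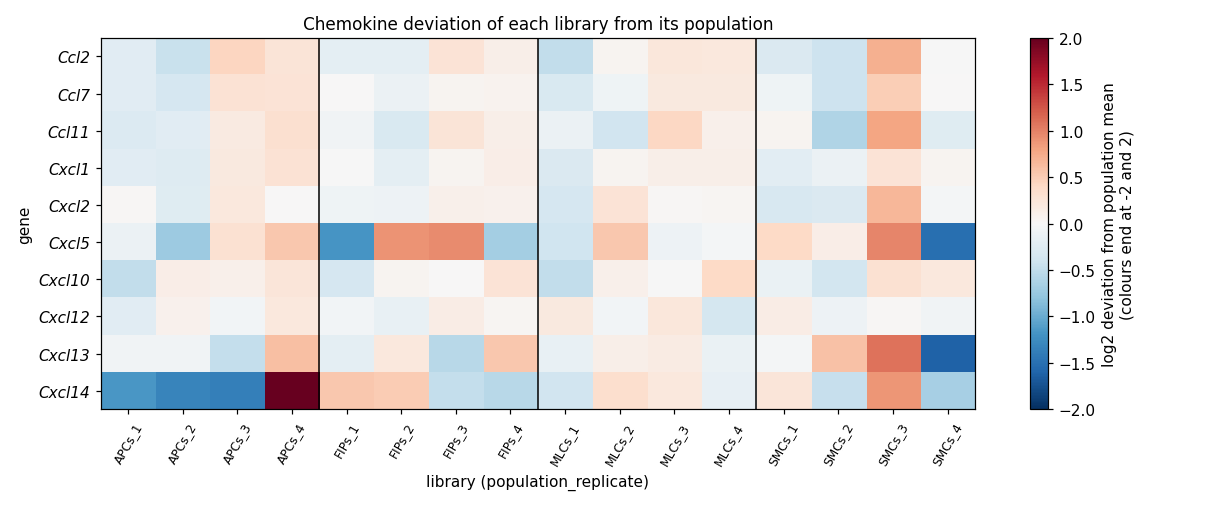
Deviation of each library from the mean of its population on the log2(normalized count + 1) scale (colour) for the 10 chemokines (rows) in the 16 libraries (columns, named by population and replicate). SMCs replicate 3 is high in 9 of 10 genes, MLCs replicate 1 is the lowest of its population in 8, and APCs replicate 4 stands out for Cxcl14.

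Within populations, the levels of Ccl2, Ccl7, Ccl11, Cxcl1 and Cxcl2 varied together from library to library. SMCs replicate 3 was the highest SMC library for 9 of the 10 genes, all but Cxcl12, and APCs replicate 4 the highest APC library for 7. MLCs replicate 1 was the lowest MLC library for 8 genes, FIPs replicate 2 the lowest FIP library for 6, and APCs replicate 2 and SMCs replicate 2 the lowest for 5 each. Over the 16 libraries, with each population's mean removed, Pearson's r was 0.943 between Ccl2 and Ccl7, 0.868 between Ccl7 and Ccl11, 0.911 between Ccl2 and Cxcl1, 0.882 between Ccl2 and Cxcl2, 0.794 between Ccl2 and Ccl11, 0.598 between Ccl11 and Cxcl2, the lowest of these 5 genes, and 0.661 between Ccl2 and Cxcl10. It was 0.035 between Ccl2 and Cxcl12. These are descriptions of libraries that also differ in depth, and depth was lowest in SMCs replicate 3 and APCs replicate 4. The genes whose level over the 16 libraries was most like that of each chemokine were found among 11824 genes with a population mean of at least 100, and all such correlations largely follow the 4 population means. For Cxcl1 they were Tfpi2 (tissue factor pathway inhibitor 2), with r of 0.991, Ccl2 (0.983) and Id3 (0.975), and for Ccl2 they were Cxcl1, Ccl7 (0.981) and Tfpi2 (0.977). Ccl7 was nearest to Ccl2, Hif1a (0.977) and Gadd45a (0.976). Ccl11 was nearest to Ctsh, the protease cathepsin H (0.996), Il1r1, the interleukin 1 receptor (0.995), and Slc7a8, an amino acid transporter (0.993). Cxcl12 was nearest to Abca8a (0.996), Gask1b (0.996) and the basement membrane collagen Col4a1 (0.996). Cxcl14 was nearest to Acta2 (0.982), Vdr, the vitamin D receptor (0.982), and S100a4 (0.981). Cxcl2 was nearest to Ifi204 (0.959) and Nfkbia (0.954), an inhibitor and target of NF-kB, and Cxcl10 to Vim (0.967). Cxcl13 was nearest to the small heat shock protein gene Hspb2 (0.965), and Cxcl5 to Niban2 (0.902).

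Other chemokine ligands were few. Of 28 further ligand genes 7 passed the filter. Between APCs and FIPs 1 of the 7 was called, Cx3cl1, where 10.4% of all genes were called and 5.22% were higher in APCs. Cx3cl1 was at 20.3, 14.1, 17.2 and 58.8 normalized counts in APCs and 5.94, 11.1, 6.68 and 8.16 in FIPs. The highest APC value was again replicate 4, and FIPs reached 10 normalized counts in 1 library, so the filter was met by the other populations. This difference is therefore given by the values and not by a test. Cxcl16, a membrane-bound ligand and scavenger receptor, was highest in MLCs at 489, 565, 721 and 812, against 232, 229.6, 336 and 325 in APCs (2.29-fold, limma adjusted p = 1.26e-06), whereas Cxcl1 and Ccl2 were lower in MLCs than in APCs. Cxcl9, an interferon-induced relative of Cxcl10, was at 64.2, 192, 120.1 and 163 in APCs and 10.1, 10.1, 6.64 and 32.6 in MLCs (9.43-fold, adjusted p = 1.54e-05), with replicate 4 the highest MLC library. Ccl9 was at 90.5, 51.2, 49.1 and 15.3 in SMCs and at 2.97, 5.55, 2.86 and 7.25 in FIPs. No FIP library reached 10 normalized counts, so this difference is given by the values and not by a test. Among APC libraries, Ccl9 was at 77.8 in replicate 4 and at most 6.43 in the others. Ccl27a was called higher in MLCs than in FIPs (log2 -1.41 for FIPs minus MLCs, adjusted p = 0.000423), and Ccl25 and Ccl28 were called in no pair. The other 21 were below the filter, among them Cxcl3, Ccl3, Ccl4 and Ccl5.

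The receptors through which these ligands signal were low in the sorted cells. Of 19 chemokine receptor genes, counting Ccrl2, which presents its ligand without signalling, 6 passed the filter. The receptor of the neutrophil attractants, Cxcr2, was at most 2.64 normalized counts in any library, Ccr2 at most 6.41 and Cxcr3 at most 6.16. Cxcr4, the receptor of Cxcl12, was at 15.1 to 23.6 in APCs, 8.16 to 9.89 in FIPs, 17.7 to 28.5 in MLCs and 6.32, 11.7, 2.14 and 8.17 in SMCs. It met the filter through APCs and MLCs, so its lower level in SMCs is given by these values and not by a test. Ccr3, the receptor of Ccl11, was at 10.1, 11.8, 10.3 and 14.1 in MLCs, the population with the least Ccl11, at 1.05, 6.40, 4.27 and 3.07 in SMCs, and at 0 in 7 of the 8 progenitor libraries. Cxcr5, the receptor of Cxcl13, averaged between 33.6 and 39.9 in the 4 populations with no call. Ccr10 was lowest in MLCs, at 7.54 to 13.5 against 33.7 to 83.3 in SMCs, and Ccr9 was called in no pair. Ccrl2, which binds chemerin, was the highest of the list, at 516, 745, 788 and 848 in MLCs and 39.7, 40.3, 75.8 and 58.8 in APCs (13.5-fold, limma adjusted p = 3.39e-11).

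The atypical receptors, which take ligands up, were highest in FIPs. All 4 of these receptors were called higher in FIPs than in APCs (5.2% of all genes) and in SMCs (4.6%). Against MLCs, 3 of 4 were called higher in FIPs (12.5%). Between APCs and FIPs their median log2 fold change was -2.999, beside -0.01 over all genes, 5.2% of which were called higher in FIPs. That Ackr2 is higher in FIPs was known when the list was drawn up, so its part in these counts is no test. Ackr3, which binds Cxcl12, was at 5118, 4671, 6509 and 5672 normalized counts in FIPs and 802, 788, 991 and 970.1 in APCs (log2 -2.62 ± 0.11 for APCs minus FIPs, limma adjusted p = 5.46e-13), and the libraries did not overlap. Its mean was 2841 in MLCs and 2267 in SMCs, and FIPs against MLCs (0.94) fell short of 2-fold. Ackr2, which degrades inflammatory CC chemokines such as Ccl2, Ccl7 and Ccl11, was at 652, 616, 842 and 723 in FIPs and 20.3, 18.1, 17.9 and 17.3 in APCs (36.4-fold, adjusted p = 3.47e-13), and at 1.68, 2.54, 2.21 and 1.76 in MLCs. Ackr1, the Duffy antigen, which binds CC and CXC ligands alike, was at 1047, 1342, 1116 and 1142 in FIPs and 116, 99.7, 124 and 105 in APCs (10.4-fold, adjusted p = 1.49e-12). Ackr4, which scavenges Ccl19, Ccl21 and Ccl25, was at 302, 243, 275 and 272 in FIPs and 60.9, 50.4, 84.4 and 121 in APCs (3.6-fold, adjusted p = 5.27e-07).

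**Figure D4:**
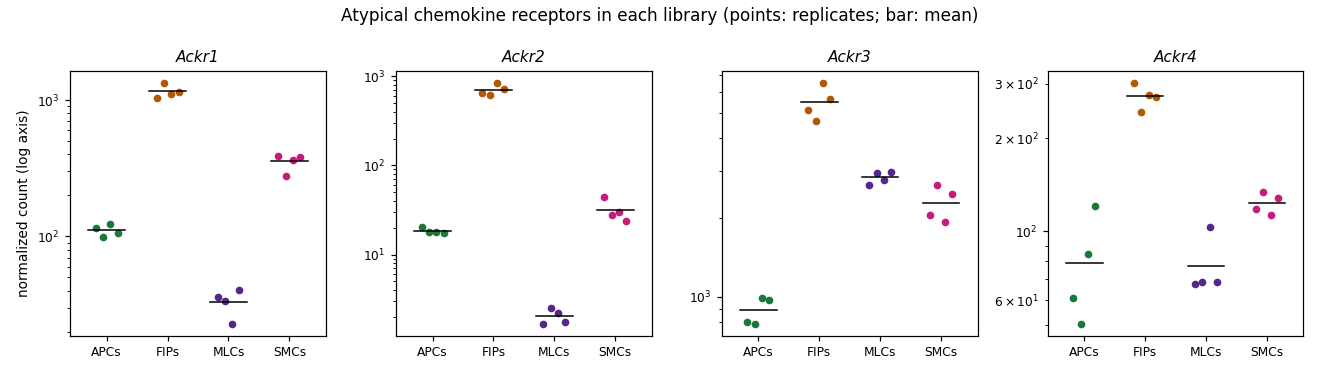
Normalized counts of the 4 atypical chemokine receptor genes (vertical log axes) in the 4 populations. Each point is 1 library and each bar the mean of 4. FIP libraries are the highest in every panel, and Ackr2 falls to between 1.68 and 2.54 counts in MLCs.

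Genes that cut or hold chemokines outside the cell differed gene by gene. Of 12 tested, 1 was called higher and 3 lower in APCs than in FIPs, where 5.22% and 5.2% of all genes were. Against MLCs, 2 were higher and 4 lower in APCs, beside 11.8% and 17.7% of all genes. Dpp4, the peptidase that trims and inactivates Cxcl12 and Ccl11, was at 9132, 8215, 8969.6 and 8904 normalized counts in MLC libraries, 2139.9, 1645, 2219 and 2209 in FIP libraries, 345, 321, 450.5 and 241 in SMC libraries and 53.2, 34.2, 32.9 and 89.9 in APC libraries. Dpp4 was highest in MLCs, which had the least Cxcl12 and Ccl11, and lowest in APCs, which had the highest mean of both. It was higher in FIPs than in SMCs, as were both chemokines. The peptidase acts on proteins, whereas these values are transcript levels, and a link between them was not tested. Mmp2, a matrix protease that also cuts Cxcl12, was 92.0-fold lower in MLCs than in APCs (limma adjusted p = 5.53e-21). Ext1, which builds the heparan sulfate chains that chemokines bind, was highest in FIPs (12812 ± 647, against 5204 ± 289 in APCs, SD, n = 4; limma adjusted p = 3.8e-13), and Sulf1, which removes sulfate from those chains, was highest in MLCs (19019.8 ± 368). Sulf2, of the same function, was at a log2 fold change of -1.003 for APCs minus MLCs and Mmp14, a membrane-bound protease, at 1.42 for FIPs minus MLCs.

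Receptors that can induce chemokines also differed between the populations. Of 18 tested, 5 were called between APCs and FIPs, all lower in APCs, as were 5.2% of all genes. These 5 were Il13ra1 (log2 -3.01 for APCs minus FIPs), Tlr2 (-1.66), Tnfrsf1b (-1.38), Il4ra (-1.30) and Tlr4 (-1.19), which sense interleukins 4 and 13, bacterial products and tumour necrosis factor. Il1r1 followed the order of Ccl11, with 4009.8 ± 222 normalized counts in APC libraries, 3567 ± 163 in FIP libraries, 1536 ± 419.9 in SMC libraries and 643 ± 44.3 in MLC libraries (SD, n = 4), and was 6.23-fold higher in APCs than in MLCs (limma adjusted p = 2.84e-13). Tlr2 was highest in MLCs (3414 ± 511), where the means of Ccl2 and Cxcl1 lay below those of the progenitors and above those of SMCs. A link between these receptors and the chemokine levels was not tested. Tnfrsf1a, the main receptor for tumour necrosis factor, was at a log2 fold change of 0.93 for APCs minus MLCs and Il6st, the shared subunit of interleukin 6 family receptors, at -0.30, and neither was called.

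Genes of the NF-kB and AP-1 response, which cell isolation can also induce, went both ways between the populations, and the early genes among them were abundant. The mean of Fos was 151176 normalized counts in APC libraries, 134246 in FIP libraries, 103984 in MLC libraries and 111916 in SMC libraries, and Egr1, Fosb, Jun and Zfp36 had means between 36466 and 151881. The summed level of the 20 genes was 704869 to 767467 in APCs, 686958 to 729248 in FIPs, 542910 to 601163 in MLCs and 560744 to 599500 in SMCs. The sum was higher in both progenitors, but its 5 most abundant genes, Fos, Fosb, Egr1, Jun and Zfp36, made up 80.4% of it in APCs, and the median log2 fold change of the 20 genes for APCs against MLCs was 0.095. Its part in the levels of the chemokines was not tested. Of the 20 genes, 3 were called between APCs and FIPs, all lower in APCs (Ptgs2, Il6 and Lif; 5.2% of all genes), and 5 between FIPs and SMCs, all higher in FIPs (4.6%). Between APCs and MLCs 5 were higher in APCs (11.8% of all genes) and 3 in MLCs (17.7%). Between FIPs and MLCs 5 were higher in FIPs (12.5%) and 2 in MLCs (18.6%). Between APCs and SMCs 3 were higher in APCs (3.79%) and 1 in SMCs (13.5%). Between MLCs and SMCs 4 were higher in MLCs (14.4%) and 3 in SMCs (13.5%). Il6, a cytokine gene often induced together with Ccl2 and Cxcl1, was at 4618, 4208, 4265 and 4991 in FIPs and 89.6, 87.1, 87.0 and 104 in MLCs (48.7-fold, limma adjusted p = 1.4e-15). Ptgs2, coding for cyclooxygenase 2, ran the other way, with 6215 ± 813 in MLCs and 2006 ± 201 in FIPs (SD, n = 4).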

How the data were processed

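The authors deposited 1 normalized signal value per gene and library, read counts divided by 1 factor per library, as the values themselves show: 100% of those above 0 were whole multiples, within 0.01, of the lowest in their column. Tools listed in the submitters' processing notes, whose roles they leave unstated, are DESeq2 1.6.3, featureCounts 1.4.6, HISAT2 2.0.1 and Trim Galore 0.4.1, and the builds are mm10 and GRCm38. Annotation and strand setting: not given in the sources used here, so overlapping and near-identical genes are uncertain. Columns headed SMLCs were taken as the SMCs titles with the same numbers. 1275 rows without a symbol were kept under their Entrez number. Libraries of 1 population differed beyond sampling noise in every pair (chi-square per degree of freedom from 5.25 to 28.7), so none was counted as a copy.

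Genes with at least 10 in at least 4 libraries were tested with limma 3.58.1 in R 4.3.3 (eBayes with a trend, two-sided) on log2(value + 1), in 1 model of the 4 populations without a block, with Benjamini-Hochberg adjustment within each of 6 pairs. The added 1 understates changes of low genes. The fit was checked on simulated data. Alternatives were pseudocounts of 0.1 and 8, no filter and a filter of 50, equal totals, quantile normalization, a replicate block, fits of 2 populations, each library left out, and edgeR 4.0.16 and DESeq2 1.42.0 on the reads recovered for 14 libraries; APCs replicate 2 and FIPs replicate 1, with steps near 1, stayed out. Leaving out both shallow libraries was chosen after seeing the data. Chemokines, lists and rules were chosen with earlier results of these data known. The text names all 10 chemokines, up to 5 genes with the highest population mean of each other list (every tested ligand and receptor), and, for each chemokine, up to 3 genes with the highest Pearson correlation. Further list members were named after their values were seen.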

Additional observations from a re-analysis of the deposited data

Results flagged for a closer look

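Within each population of 4 libraries, the highest or lowest library was compared with the nearest of the others for the 10 chemokines and the 17 other ligand and receptor genes tested, 107 groups in all. In 8 of them that gap, as a share of the range, exceeded Dixon's 95% critical value, where chance gives about 1 group in 20. APCs replicate 4 was the highest APC library for Cxcl14 (1707 normalized counts, next 51.6), Ccl9 (77.8, next 6.43) and Cx3cl1 (58.8, next 20.3). It also held the highest APC levels of Acta2, Cnn1 and Tagln given above, but the lowest of Des and Smtn. MLCs replicate 4 was the highest MLC library for Cxcl9 (32.6, next 10.1). MLCs replicate 3 was the highest for Ackr4 (103.3, next 68.7). FIPs replicate 4 was the lowest FIP library for Ccl27a (10.9, next 19.4) and FIPs replicate 3 the lowest for Ccr10 (23.9, next 30.5). The value of Ccr3 in FIPs replicate 3, 0.955, is a single read where the other 3 FIP libraries had none.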

How the results depend on the processing

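Of 1614 log2 fold changes of a chemokine in a pair of populations under 27 alternatives, 1569 kept their direction and their side of the threshold, 30 passed it newly, 8 lost it and 7 changed sign. Many of these values could not change direction, so the 1569 is no measure of robustness. A fold change stays fixed when the library left out belongs to neither population of the pair. Other filters, the replicate block and fits of the compared populations alone also leave it fixed, and only the adjusted p can move. The 1614 also include Cxcl5 and Cxcl13 against progenitors, which are no test. The sign changes were all of Cxcl13, in comparisons without a call: between APCs and FIPs (0.16 in the fit of all libraries) it was -0.0125 with edgeR, -0.041 without both shallow libraries and -0.041 to 0.34 with single libraries left out, and between MLCs and SMCs (0.22) it was -0.038 with edgeR, -0.054 with DESeq2 and -0.32 to 0.58 with single libraries left out. All 10 counted, Cxcl5 and Cxcl13 included, the number called between APCs and FIPs was 0, and 1 with equal totals, edgeR and DESeq2 and 0 to 1 with single libraries left out; the 1 was Cxcl14. That between MLCs and SMCs was 3, and 5 with equal totals (Cxcl1 and Cxcl10 added, at 1.01 and 1.01), 5 without both shallow libraries and 3 to 4 with single libraries left out. Equal totals moved the median of all genes by 0.24 between APCs and FIPs, -0.33 between FIPs and MLCs, -0.22 between FIPs and SMCs and 0.11 between MLCs and SMCs, raised the share of all calls that went to APCs rather than FIPs from 50.1% to 67.5%, and lowered that of FIPs rather than MLCs from 40.2% to 28.6%. With quantile normalization, which moved the median of all genes by 0.13 between APCs and MLCs and 0.12 between FIPs and MLCs, the progenitors' share of all calls went from 22% to 44.5% for APCs and from 25.7% to 45.6% for FIPs, both against SMCs. Without a filter the median of APCs against MLCs moved by -0.11. By the rule used, the replicate numbers were not treated as pairs (correlations of same-numbered deviations from -0.034 to 0.171, over 0.1 in 6 of 24 pairs). A library still correlated best with its own number in 32 of 48 cases, more often than the 1 in 4 of chance. Libraries of the same number thus shared some variation, which the main fit leaves unpaired. With the replicate block the counts called were 0, 7, 9, 8, 9 and 3, as without it. Few reads limit Cxcl5 and, in progenitors, Cxcl13.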

Other observations

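The summed level of the 18 interferon response genes was 55441 normalized counts in MLCs replicate 4, against 25924, 33757 and 26792 in the others. In APCs it was 30152 in replicate 4 and at most 27200.2 in the others, in FIPs 35269 and at most 29395, and in SMCs 18648 and at most 16136. Rsad2, coding for the antiviral protein viperin, was at 276, 687, 376 and 1916 in MLC libraries, 23.7, 73.0, 28.6 and 197 in FIP libraries, 13.5, 30.2, 26.5 and 111 in APC libraries and 37.9, 59.8, 29.9 and 136 in SMC libraries. Cxcl10 was highest in replicate 4 in APCs, FIPs and MLCs, and in SMCs replicate 4 was second at 2117. Gene by gene, replicate 4 was the highest library for all 18 in FIPs and in MLCs, for 16 in APCs (all but Stat2 and Irf9) and for 16 in SMCs (all but Irf1 and Oas1a). The labels do not say what a replicate number stands for.

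Csf1r, a receptor gene counted here among macrophage markers, was at 2108, 2271, 2014 and 2449 normalized counts in MLCs and 307, 231, 316 and 179.8 in SMCs, and Mrc1, of the same list, at 119.8, 103, 117 and 97.7 in MLCs and 82.1, 40.6, 53.4 and 25.5 in SMCs, against means of 38.0 in APCs and 23.7 in FIPs. Over all 16 libraries Ptprc was at most 11.4 and C1qa at most 10.7.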
